A study of Homo sapiens with 4 samples.

Results

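The SR splicing factors are RNA-binding proteins that carry 1 or 2 RNA recognition motifs and a tail rich in arginine and serine repeats. The 10 genes described here, SRSF1 to SRSF7, SRSF9, SRSF10 and SRSF11, were taken by symbol and matched to Ensembl identifiers, and all 10 were found among the 63856 genes counted. They were measured by RNA-seq in MCF10A, a non-tumorigenic human breast epithelial line kept with horse serum, insulin, hydrocortisone, EGF and cholera toxin, from total RNA after depletion of ribosomal RNA. Cells of the WT genotype were compared with cells stably overexpressing HSF1 after lentiviral transduction (HSF1-pLVX, labelled HSF1 in the plots), with 2 libraries of each. HSF1 cDNA was carried by the pLVX vector and transduced cells were selected with puromycin. The samples hold no library of empty-vector cells, so HSF1, the vector, the selection and separate culture cannot be told apart. The study's methods speak of biological replicates, but whether the libraries of a variant came from separate cultures is not given, so p-values measure the spread between these samples only. The counts do not separate transgene from endogenous HSF1.

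SR proteins bind exonic enhancer sequences and help U1 snRNP and the U2AF proteins to recognise the neighbouring splice sites, while hnRNP proteins often act against them. Cytoplasmic SRPK kinases and nuclear CLK kinases phosphorylate the arginine-serine tail, and transportin 3 (TNPO3) carries the phosphorylated proteins into the nucleus. Most SR genes limit their own level by splicing in exons with premature stop codons, which sends the transcript to nonsense-mediated decay (NMD). In heat-shocked human cells HSF1 drives transcription of satellite III repeats, whose RNA gathers SRSF1, SRSF7 and SRSF9 in nuclear stress bodies. The gene counts analysed here hold neither satellite III RNA nor the choice of exon within a gene.

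The libraries held between 18688109 and 24184285 counts. Levels are given in CPM, which are counts scaled to a library of 1000000 after TMM normalization. The quasi-likelihood test of edgeR compared the variants, p-values were adjusted by Benjamini-Hochberg over the 15830 genes tested, and genes under an adjusted p of 0.05 were called higher or lower. HSF1 itself stood at 200.4 and 189 CPM in WT cells and at 982 and 999 CPM in HSF1-pLVX cells, a log2 fold change of 2.35 (SE 0.0999). Of 13 mammary epithelial markers 9 fell and 3 rose, where 33.2% of all tested genes were called lower and 32.7% higher. The summed level of the 13 went from between 32410 and 33580 CPM in WT to between 16150 and 16230 CPM in HSF1-pLVX libraries. Of 8 fibroblast markers, 2 could be tested, and of these DCN rose, from 1 and 3 counts to 94 and 87. COL1A1, at 7.19 and 10.4 CPM in WT and 10.7 and 9.21 CPM in HSF1-pLVX libraries, was not called. Among those not tested, PDGFRA went from 6 and 4 counts to 1 and 1, and PDGFRB from 2 and 0 to 10 and 5. LUM, COL1A2 and COL3A1 had at most 1 count per library. The sum of the 8 fibroblast markers lay between 7.88 and 10.9 CPM in WT and between 13.9 and 15.0 CPM in HSF1-pLVX libraries. The endothelial marker KDR rose from 1.87 and 1.45 to 12.3 and 12.9 CPM, while the endothelial markers PECAM1, CDH5 and VWF stayed under 1.2 CPM and were not tested, and the sum of these 4 went from between 1.94 and 3.04 to between 13.1 and 14.3 CPM. The immune marker PTPRC was at 0 counts in all libraries, and the summed immune and adipocyte markers reached at most 0.323 and 0.554 CPM. All 12 proliferation markers rose, against 32.7% of all tested genes. Among the 12, MYC went from 80.5 and 89.9 to 536 and 524 CPM. The sum of the 12 went from between 473 and 539 to between 1976 and 2080 CPM. In its own RNA-seq comparison with WT cells, the paper lists DNA replication among the pathways enriched in up-regulated genes. By crystal violet staining, it reports that the proliferation of MCF10A cells was not affected by stable overexpression of HSF1. These RNA levels do not measure growth. The part of these marker changes in the results below was not tested. In bulk samples fewer cells of a type and less RNA per cell cannot be told apart.

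All 10 SR genes passed the filter on low counts, with between 1124 and 5451 counts per library. Of the 10, 9 were called higher and 0 lower in HSF1-pLVX cells, against a background of 32.7% of tested genes higher and 33.2% lower. Both HSF1-pLVX libraries lay above both WT libraries in the same 9, which 42.1% of tested genes also did, while 41% lay below. The exception was SRSF9, whose level differed by less than the spread between replicates. Their log2 fold changes had a median of 0.53, against 0.019 over all tested genes. Among the 2996 tested genes at or above the mean level of the lowest SR gene, 32% were higher and 46.8% lower, with a median of -0.15. The rises were moderate: between 21.9 and 31.2% of tested genes had a larger log2 fold change than the 9 SR genes that rose. Within replicate numbers, the log2 ratio of the 10 genes ran from -0.034 to 0.81, so no SR gene doubled.

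**Figure D1:**
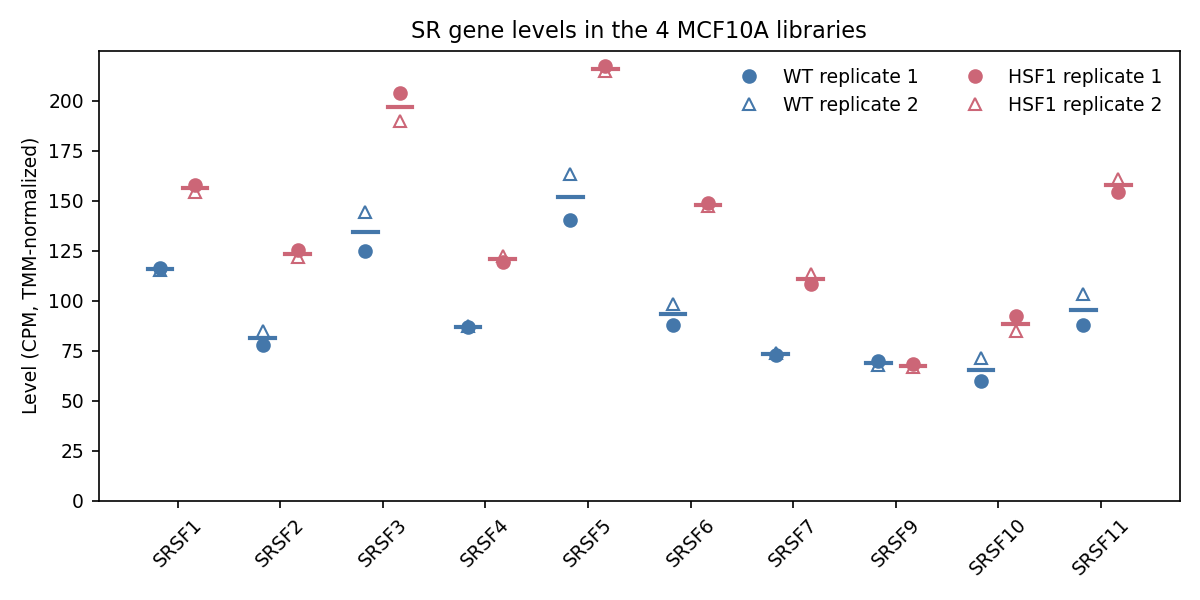
Levels of the 10 SR genes in CPM (linear axis from 0) in each library, with blue for WT and red for HSF1-pLVX, filled circles for replicate 1, open triangles for replicate 2 and short lines for the means of 2 libraries. In 9 genes both red points lie above both blue points, and in SRSF9 all 4 points lie between 66.7 and 70.0 CPM.

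SRSF1, a splicing factor that shuttles between nucleus and cytoplasm and is known as a proto-oncogene, lies on chromosome 17 of hg38 (58003360 to 58007346, ENSG00000136450.12). It stood at 116 and 115 CPM in WT libraries and at 158 and 154 CPM in HSF1-pLVX libraries. The libraries of each variant lay close together and the variants did not overlap. The log2 fold change was 0.43 (SE 0.0844, adjusted p = 0.000413 in edgeR). SRSF9, the SR protein closest to SRSF1 in its arrangement of 2 RNA recognition motifs, is encoded on chromosome 12 (120461668 to 120469793, ENSG00000111786.8). It stood at 70.0 and 68.0 CPM in WT and at 68.3 and 66.7 CPM in HSF1-pLVX libraries. The variants overlapped, and the log2 fold change was -0.031 (SE 0.0811, adjusted p = 0.752 in edgeR) with a 95% interval from -0.21 to 0.14. That interval lies below the fitted value of each of the other 9 genes, although a difference between genes was not itself tested. The sign of the SRSF9 value was not stable, as it became 0.0092 without WT replicate 1 and 0.030 when counts were scaled by library size alone.

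SRSF2, a nuclear SR protein that marks splicing speckles, is encoded on chromosome 17 (76734115 to 76737374, ENSG00000161547.16). Its level was 77.7 and 84.7 CPM in WT and 125 and 122 CPM in HSF1-pLVX libraries, with no overlap. It rose by a log2 fold change of 0.60 (SE 0.0862, adjusted p = 2.46e-05 in edgeR). Several SR genes share counted bases with neighbours. Of the counted bases of SRSF2, 36.7% lie also in MFSD11, read from the opposite strand. MFSD11, a membrane protein gene, moved the other way, from 22.8 and 23.8 CPM to 16.5 and 16.9 CPM (log2 fold change -0.48, SE 0.103). Of the counted bases of SRSF9, 46.2% lie also in GATC, a gene for a mitochondrial tRNA amidation subunit on the opposite strand, which went from 29.4 and 26 CPM to 25.01 and 23.1 CPM without being called (log2 fold change -0.20, SE 0.102, adjusted p = 0.0991 in edgeR). The strand and overlap settings of the counting are not given in the sources used here, so reads from these shared stretches cannot be placed. MIR636, which lies within SRSF2, had 0 counts. SRSF1 shares 23.1% of its bases with 2 genes without a symbol that had at most 13 counts, and SRSF4 shares 1.9% with such a gene at 0 counts.

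SRSF3 and SRSF7 each carry 1 RNA recognition motif and act also as adaptors for mRNA export, SRSF7 with a zinc knuckle beside the motif. SRSF3 (chromosome 6, 36594353 to 36605600) stood at 125 and 144 CPM in WT and at 204 and 189.8 CPM in HSF1-pLVX libraries. SRSF7 (chromosome 2, 38743599 to 38751494) stood at 72.7 and 74.0 CPM in WT and at 109 and 114 CPM in HSF1-pLVX libraries. Neither gene overlapped between the variants, and the replicates of SRSF3 lay further apart than those of SRSF7. The log2 fold change was 0.55 for SRSF3 (SE 0.0963, adjusted p = 0.000164 in edgeR). That of SRSF7 was 0.60 (SE 0.0831, adjusted p = 1.93e-05 in edgeR).

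SRSF4, SRSF5 and SRSF6 form a related subgroup with 2 RNA recognition motifs each. SRSF4 (chromosome 1, 29147743 to 29181987) was measured at 86.9 and 87.1 CPM in WT and at 119 and 122 CPM in HSF1-pLVX libraries. SRSF5 (chromosome 14, 69726900 to 69772005), was measured at 140.1 and 163 CPM and at 217 and 215 CPM. SRSF6 (chromosome 20, 43457928 to 43464247) was measured at 87.7 and 98.4 CPM and at 149 and 147 CPM. In each of the 3 genes both HSF1-pLVX libraries lay above both WT libraries. SRSF6 rose most of the 3, by a log2 fold change of 0.67 (SE 0.0894, adjusted p = 1.29e-05 in edgeR). SRSF5 rose by 0.51 (SE 0.0953) and SRSF4 by 0.47 (SE 0.0828), with adjusted p = 0.000291 and 0.000166 in edgeR.

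SRSF10 is an SR protein that turns into a splicing repressor when heat shock or mitosis removes its phosphates, and SRSF11 is a more distant SR protein that meets the U2AF proteins. SRSF10 (chromosome 1, 23964804 to 23980927) stood at 59.9 and 71.2 CPM in WT and at 92.3 and 84.8 CPM in HSF1-pLVX libraries. SRSF11 (chromosome 1, 70205682 to 70253052) stood at 87.9 and 103 CPM in WT and at 154 and 161 CPM in HSF1-pLVX libraries. Both genes separated the variants, SRSF10 with the narrower gap. SRSF11 had the largest rise of the 10, a log2 fold change of 0.72 (SE 0.0953, adjusted p = 1.14e-05 in edgeR). SRSF10 had 0.43 (SE 0.0963, adjusted p = 0.00114 in edgeR), the largest adjusted p of the 9 genes called. Of 115 tested genes in the other splicing lists, HNRNPDL and ARGLU1 followed SRSF11 most closely over the 4 libraries, with root mean square differences of 0.039 and 0.0416 in log2 CPM centred per gene.

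The replicates of a variant did not always agree. Of the 10 SR genes, 8 were higher in WT replicate 2 than in WT replicate 1, by up to 0.25 on the log2 scale in SRSF10, with a median of 0.145 over the 10. Of the 2996 genes at this level, 34.7% were higher in WT replicate 2, with a median of -0.049. Between the HSF1-pLVX libraries the median of the 10 genes was -0.025. The 9 rises exceeded this spread. Leaving out any single library left 9 genes higher, and the lowest log2 fold change among them was the 0.34 of SRSF10 without WT replicate 1.

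Processed pseudogenes could take reads from their parents. The table holds 13 pseudogenes of SR genes, of which 4 had any count, and the highest count was 9 in a library. Their counts are small beside the 1124 counts of the lowest SR value. How reads with several matches were counted is not given, so these counts cannot show whether the parents lost reads. All 10 genes have annotated transcripts that are targets of nonsense-mediated decay in GENCODE release 44, as have 39% of protein-coding genes. SRSF7 has the most, with 6, and SRSF5 and SRSF6 have 1 each. Counts per gene add such transcripts to those that make protein, so protein levels cannot be read from them.

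The 250 bases before the start site are shown, from RefSeq (GRCh38.p14), for both genes with the largest rises, for SRSF9 and for SRSF8, an SR gene outside the 10 that fell. Each is printed 5′ to 3′ on the strand of its gene, with capitals for a 2-unit heat shock element.
SRSF11 (chr1:70205446-70205695, plus strand): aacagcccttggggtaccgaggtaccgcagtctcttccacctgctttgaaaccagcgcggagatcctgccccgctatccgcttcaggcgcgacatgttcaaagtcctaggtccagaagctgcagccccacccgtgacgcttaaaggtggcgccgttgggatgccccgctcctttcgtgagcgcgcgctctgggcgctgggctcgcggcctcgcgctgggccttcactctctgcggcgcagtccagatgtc
SRSF6 (chr20:43457646-43457895, plus strand): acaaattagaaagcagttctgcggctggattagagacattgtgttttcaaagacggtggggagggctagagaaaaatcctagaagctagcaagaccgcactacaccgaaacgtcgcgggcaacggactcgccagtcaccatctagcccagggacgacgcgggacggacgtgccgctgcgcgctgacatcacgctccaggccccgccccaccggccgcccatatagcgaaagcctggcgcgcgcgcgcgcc
SRSF9 (chr12:120469749-120469998, minus strand): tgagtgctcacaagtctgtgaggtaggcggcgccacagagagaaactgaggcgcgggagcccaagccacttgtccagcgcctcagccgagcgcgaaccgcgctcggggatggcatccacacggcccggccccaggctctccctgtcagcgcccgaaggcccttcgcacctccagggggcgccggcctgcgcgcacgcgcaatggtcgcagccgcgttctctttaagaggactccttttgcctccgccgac
SRSF8 (chr11:95066627-95066876, plus strand): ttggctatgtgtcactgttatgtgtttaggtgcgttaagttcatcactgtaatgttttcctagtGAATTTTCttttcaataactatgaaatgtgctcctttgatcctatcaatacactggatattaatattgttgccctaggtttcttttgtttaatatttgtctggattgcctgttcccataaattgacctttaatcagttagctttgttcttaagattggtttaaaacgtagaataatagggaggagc
HSF1 binds inverted repeats of the unit GAA. Windows of 250 bases before and 50 bases after the start were searched, and 9 of the 10 SR genes had 11 windows in the RefSeq table, SRSF2 having none. The 2-unit element was GAA and TTC, in either order, with 2 bases of any kind between them, and each order is its own reverse complement. It was present in 0 of the 11 windows and in 13.5% of all 35116 windows. The 3-unit element, GAA, TTC and GAA with 2 such bases in each gap, or its reverse complement, holds the 2-unit element and was found in 0 of the 11 and in 0.49% of all windows. The E-box CACGTG, the letters that MYC and its partner bind, was found in 0 of the 11 and in 7.26% of all windows. In the SRSF8 window shown, the 2-unit element lies at positions -186 to -179 relative to the start site. Relative to another SRSF8 start site in the RefSeq table, the same element lies at -228 to -221. The windows of the 9 genes had a GC content between 53.7 and 74.7%, against a median of 58.7% over all windows. These matches are descriptions of letters only.

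To compare levels between genes, CPM was divided by the counted exon length in kilobases. In WT cells SRSF1 had the highest level per length, 34.6 ± 0.214 CPM per kb (SD, n = 2), followed by SRSF5 at 28.3 ± 3.05 and SRSF2 at 26.9 ± 1.64. SRSF6 followed at 20.3 ± 1.65, SRSF3 at 18.9 ± 1.98, SRSF9 at 18.4 ± 0.362 and SRSF7 at 18.1 ± 0.225 CPM per kb. SRSF11 had 11.3 ± 1.28, SRSF4 9.78 ± 0.0198 and SRSF10 6.38 ± 0.779 CPM per kb. SRSF5 and SRSF2 overlapped, as did the neighbours from SRSF6 to SRSF7 in this order. In HSF1-pLVX cells SRSF1 was again the first, at 46.7 ± 0.727, and SRSF10 the last, at 8.62 ± 0.52 CPM per kb. SRSF9, at 18.03 ± 0.305, moved from the sixth place to the eighth, where it overlapped SRSF11 at 18.6 ± 0.556 CPM per kb. The order rests on the length used. Per kilobase of the canonical transcript of GENCODE release 44, a choice made after the values were seen, SRSF5 came first at 101 ± 10.9 and SRSF9 second at 59.9 ± 1.18 CPM per kb in WT cells, while SRSF1 came at 21.6 ± 0.134. For SRSF1 this length, 5343 bases, exceeds its 3340 counted bases, so its reads were divided by more bases than were counted. Its place on this length cannot be compared with the others.

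Summed over the 10 genes, the level was 186 and 200.1 CPM per kb in WT libraries and 276 and 272 CPM per kb in HSF1-pLVX libraries, which is 1.42-fold higher. With 2 libraries against 2 the two-sided exact permutation test cannot go below p = 0.333, the value found here. SRSF9 made up 10.1 and 9.08% of this sum in WT libraries and 6.61 and 6.55% in HSF1-pLVX libraries. Its share did not overlap between the variants. SRSF6 took 10.3 and 10.7% in WT and 11.7 and 11.8% in HSF1-pLVX libraries, also without overlap. SRSF1 took 18.7 and 17.2% in WT and 17.1 and 17.0% in HSF1-pLVX libraries, while SRSF5, at between 14.1 and 15.2% in the 4 libraries, overlapped. These shares depend on the length used. Per kilobase of the canonical transcript SRSF9 made up 16.6 and 14.9% in WT and 11.2 and 11% in HSF1-pLVX libraries, again without overlap. SRSF6 then took 5.51 and 5.71% in WT and 6.43 and 6.42% in HSF1-pLVX libraries. SRSF1 took 5.95 and 5.44% in WT and 5.56 and 5.49% in HSF1-pLVX libraries, which overlapped. Its share is lowered here because its canonical transcript is longer than its counted bases.

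**Figure D2:**
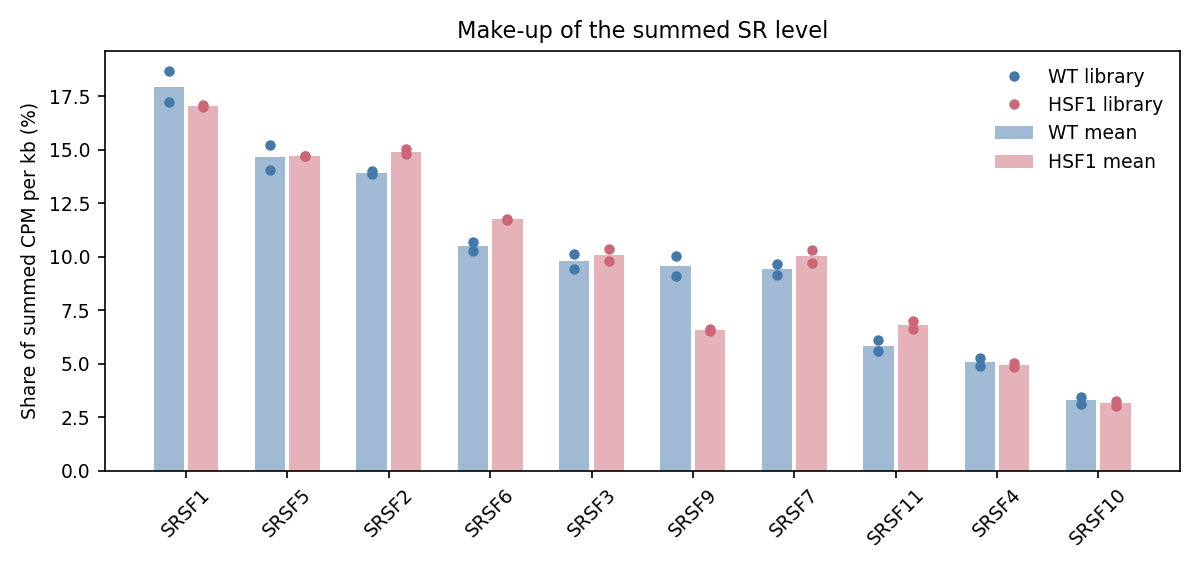
Share of each SR gene in the summed CPM per kb of counted exons of the 10 genes, in percent; bars are means of 2 libraries (blue WT, red HSF1-pLVX) and points are single libraries. SRSF9 went from a mean of 9.57% to 6.58%, while SRSF6 went from 10.5% to 11.8%.

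Ratios between genes of 1 library do not depend on the scaling between libraries. The ratio of SRSF1 to SRSF9 counts was 1.66 and 1.69 in WT and 2.31 and 2.32 in HSF1-pLVX libraries. The ratio of SRSF2 to SRSF8 was 0.975 and 1.14 in WT and 2.21 and 2.13 in HSF1-pLVX libraries. Both ratios separated the variants. The ratio of SRSF3 to SRSF7 lay between 1.67 and 1.95 over the 4 libraries and overlapped. The ratio of SRSF4 to SRSF6 went from 0.99 and 0.885 to 0.801 and 0.83, that of SRSF5 to SRSF6 from 1.597 and 1.66 to 1.46 in both libraries, and that of SRSF10 to SRSF11 from 0.681 and 0.69 to 0.598 and 0.527. These 3 ratios fell without overlap and by less than that of SRSF1 to SRSF9 rose. No test was made on the 6 ratios, and the share of other gene pairs that separate the variants was not counted. Among single tested genes, 42.1% had both HSF1-pLVX libraries above both WT libraries and 41% had both below.

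**Figure D3:**
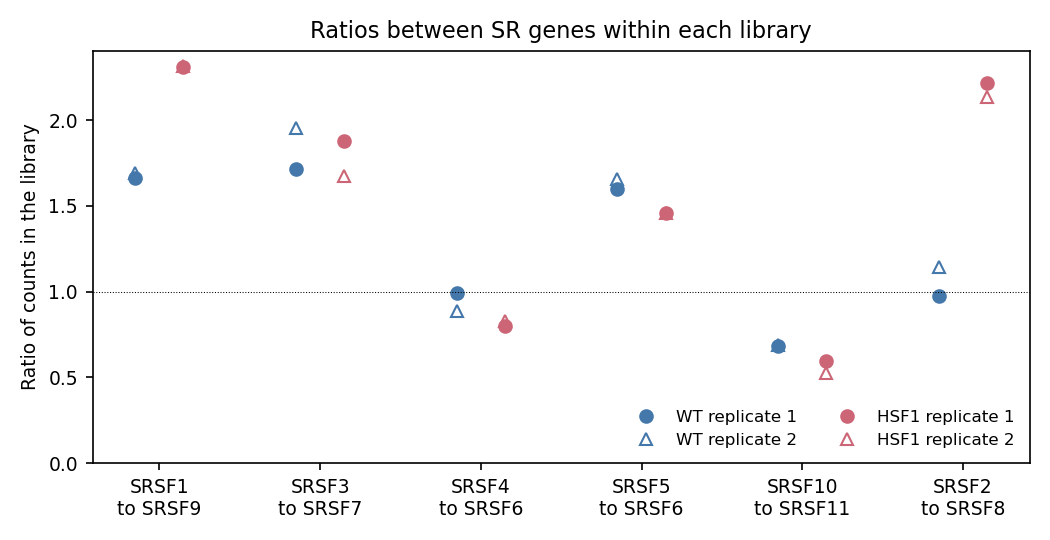
Ratio of the counts of SR genes within each library (linear axis from 0, dotted line at 1), with blue for WT and red for HSF1-pLVX, filled circles for replicate 1 and open triangles for replicate 2. SRSF1 to SRSF9 and SRSF2 to SRSF8 lie clearly higher in HSF1-pLVX libraries, and SRSF3 to SRSF7 overlaps.

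Outside the 10, the SR family holds SRSF8 and SRSF12. SRSF8, an intronless copy derived from SRSF2, fell from 79.6 and 74.2 CPM to 56.5 and 57.0 CPM, a log2 fold change of -0.44 (SE 0.0831, adjusted p = 0.000321 in edgeR). Reads of stretches that SRSF8 and SRSF2 have in common could be split, so both are uncertain to that extent. SRSF12 had 11 and 10 counts in WT and 12 and 3 in HSF1-pLVX libraries and was not called (adjusted p = 0.215 in edgeR), except without HSF1-pLVX replicate 1 (adjusted p = 0.0334 in edgeR).

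In a list of 21 other SR and SR-related genes, 13 (61.9%) were higher, 3 (14.3%) lower and 5 not called, against 32.7% higher and 33.2% lower among all tested genes, with a median log2 fold change of 0.39. TRA2B, a splicing activator of the transformer family, rose from 76.8 and 82.8 to 138 and 130.3 CPM (log2 fold change 0.75). TRA2A, its relative, went from 44.9 and 59.3 to 56.7 and 59.9 CPM and was not called, though it was without WT replicate 2 (log2 fold change 0.38, adjusted p = 0.00223 in edgeR). The WT libraries of TRA2A differed by more than the variants. SREK1, a regulatory SR protein, had the largest log2 fold change of the list, 0.96 (SE 0.106). The matrix proteins SRRM2 and SRRM1 rose by 0.84 and 0.60, and the exon junction partners PNN and ACIN1 by 0.82 and 0.58. LUC7L3, LUC7L and LUC7L2, which work with U1 snRNP, rose by 0.77, 0.50 and 0.39, and LUC7L2 lost its call without HSF1-pLVX replicate 2 (adjusted p = 0.063 in edgeR). ARGLU1 rose by 0.74 and SRRT by 0.41. RNPS1 (0.21) and PPIG (0.19) were called by a narrow margin and lost the call in 8 of 9 alternatives each, keeping it when counts were scaled by library size alone. SON, which organises splicing speckles, fell by 0.26 and THRAP3 by 0.28, calls lost in 4 and 2 of 9 alternatives, whereas RSRC1 (-0.23), RSRC2 (0.049) and BCLAF1 (-0.051) were not called. RSRC1 was called lower with the size factors of DESeq2 (adjusted p = 0.0425 in edgeR). The number lower was 1 without WT replicate 1 and 1 without HSF1-pLVX replicate 2.

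Among 10 SR kinases and their importer, 9 could be tested, of which 3 were higher, 1 lower and 5 not called. The 33.3% higher is near the 32.7% of all tested genes, and the 11.1% lower compares with 33.2%. CLK1, a nuclear kinase that rephosphorylates SR proteins after heat shock, went from 29.6 and 46.5 CPM to 70.2 and 71.9 CPM, a log2 fold change of 0.90 (SE 0.145, adjusted p = 7.42e-05 in edgeR). CLK4 rose from 18.7 and 25.1 to 36.9 and 34.8 CPM and PRPF4B, a spliceosome kinase, from 63.9 and 77.7 to 96.5 and 85.7 CPM (log2 fold changes 0.71 and 0.36). WT replicate 2 was higher than WT replicate 1 in all 3 of them. SRPK1, the main cytoplasmic SR kinase, fell from 112 and 118 to 98.3 and 91.1 CPM (log2 fold change -0.28, adjusted p = 0.011 in edgeR). SRPK2 (0.0053), SRPK3 (-0.18), CLK3 (-0.19), DYRK1A (-0.14) and TNPO3 (-0.14) were not called, SRPK3 at about 1 CPM or less. CLK3 was called lower without WT replicate 1 (adjusted p = 0.0433 in edgeR). CLK2 had at most 1 count in each library and was not tested. Since the settings of the counting for overlapping genes and for reads with several matches are not given, this count does not show whether CLK2 was expressed. Without HSF1-pLVX replicate 2, only 1 gene was higher (CLK1 and PRPF4B had adjusted p = 0.0558 and 0.0591 in edgeR) and 0 lower, and without WT replicate 1, 2 were lower. Without HSF1-pLVX replicate 1 the number higher was 2. When counts were scaled by library size alone SRPK1 was not called (adjusted p = 0.0558 in edgeR), so 0 were lower.

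**Figure D4:**
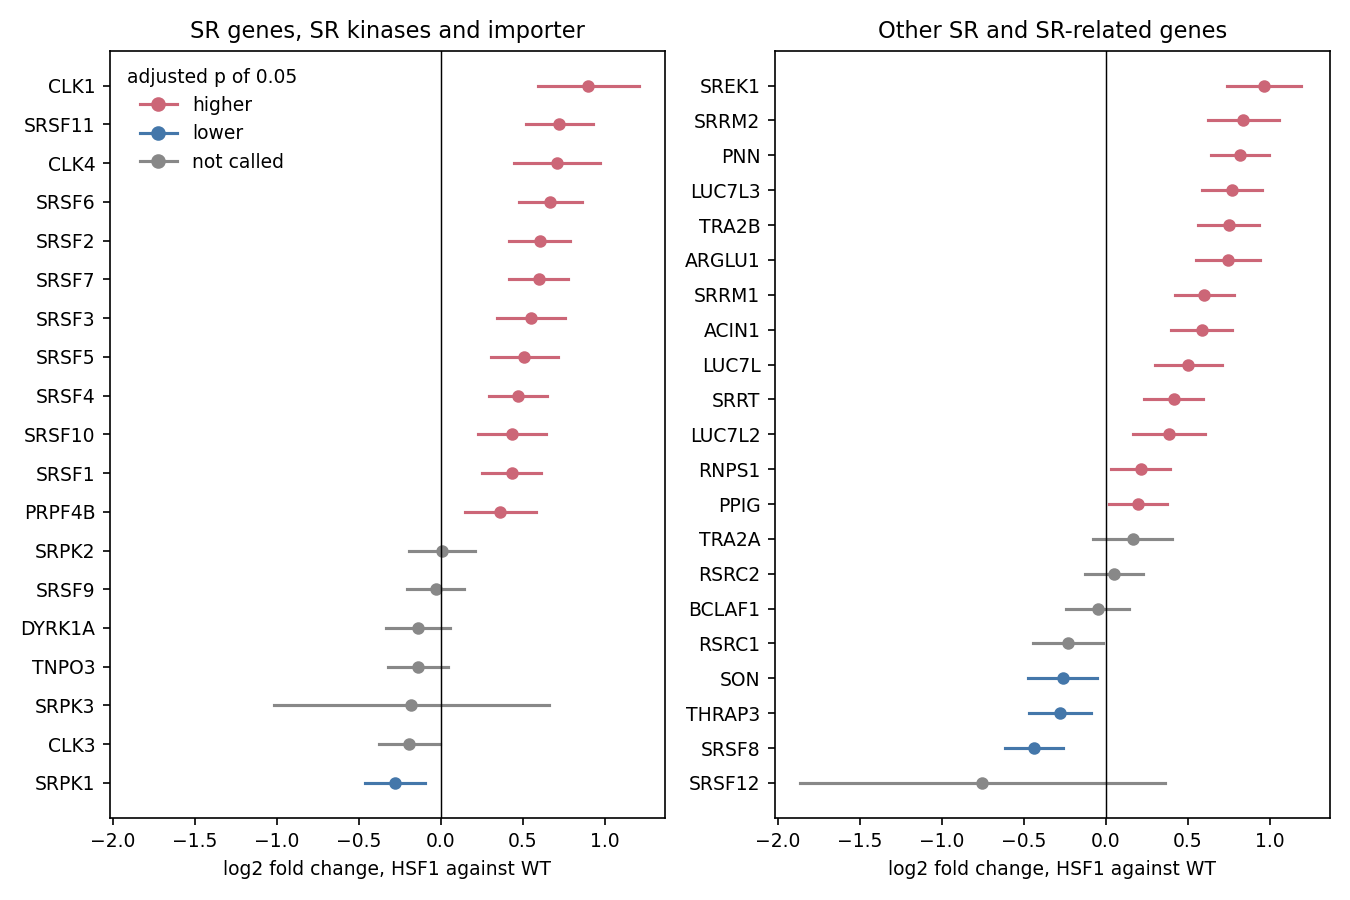
Log2 fold changes of HSF1-pLVX against WT cells with 95% intervals from edgeR, on the left for the 10 SR genes with 9 kinase and importer genes, on the right for 21 other SR and SR-related genes; red marks genes called higher, blue lower and grey not called. SRSF9 sits at -0.031 among the genes not called, and the other 9 SR genes lie between 0.43 and 0.72.

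Of 29 early spliceosome genes, whose products SR proteins meet at the splice sites, 20 (69%) were higher, 1 (3.45%) lower and 8 not called, against 32.7% higher and 33.2% lower among all tested genes, with a median log2 fold change of 0.36. SNRPA, a U1 snRNP protein, rose by 1.23 (SE 0.0844), and SNRPF, one of the Sm ring proteins, by 1.17 (SE 0.0959). ZRSR2, which recognises the minor class of introns, fell by 0.28 but kept that call only in 1 of 9 alternatives. Among hnRNP genes 19 of 26 tested (73.1%) were higher, 4 (15.4%) lower and 3 not called (median 0.39). HNRNPA1, an antagonist of SRSF1 in splice site choice, rose from 231 and 236 to 855 and 952 CPM, a log2 fold change of 1.95 (SE 0.102). PTBP3 fell by 0.50 and HNRNPLL by 0.36. HNRNPH1 (1.29) stood at 2.02 to 7.20 CPM, so its value rests on few counts. With the counting settings not given, it is uncertain as a measure of HNRNPH1 transcripts. That limit applies also to HNRNPL (10 to 18 counts, not called) and HNRNPR (at most 6 counts, not tested). In the early spliceosome list it applies to U2AF1 (55 to 174 counts, called higher). Without HSF1-pLVX replicate 2, 13 hnRNP genes were higher and 1 lower, and HNRNPH1 and HNRNPLL were no longer called (adjusted p = 0.052 and 0.0744 in edgeR). Without WT replicate 1, 2 hnRNP genes were lower.

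Of 16 genes of nonsense-mediated decay, 5 (31.2%) were higher, 6 (37.5%) lower and 5 not called, shares near the 32.7 and 33.2% of all tested genes, with a median log2 fold change of -0.066. SMG5, which helps to recruit RNA decay enzymes, fell by 1.02, while DHX34, a helicase, and MAGOH, of the exon junction complex, rose by 1.16 and 1.07. UPF1, the central helicase of the pathway, stood at 160.2 and 148 CPM in WT and 158 and 165 CPM in HSF1-pLVX libraries and was not called. Without HSF1-pLVX replicate 2, 3 were higher and 2 lower, and DESeq2's Wald test called 3 higher. Of 14 tested epithelial and tissue splicing regulators, 8 (57.1%) were higher, 3 (21.4%) lower and 3 not called (median 0.34). ESRP2, an epithelial splicing regulator, fell from 80.6 and 80.4 to 45.1 and 43.1 CPM (log2 fold change -0.87, SE 0.0826), while its relative ESRP1 stood between 144 and 149 CPM in the 4 libraries. MBNL3 rose by 1.36 and SAFB, a scaffold protein of nuclear stress bodies, by 0.66. RBM38 fell by 0.43, a call lost in 5 of 9 alternatives (adjusted p up to 0.144 in edgeR, without WT replicate 2). Without HSF1-pLVX replicate 2, 1 gene of this list was lower. Of 6 genes whose proteins are known from nuclear stress bodies, SRSF1, SRSF7, HNRNPM, SAFB and CLK1 were called higher and SRSF9 was not called. That is 83.3% higher and 0% lower, against 32.7 and 33.2% of all tested genes. All 6 are also counted in the lists above, so this is not a separate result.

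**Figure D5:**
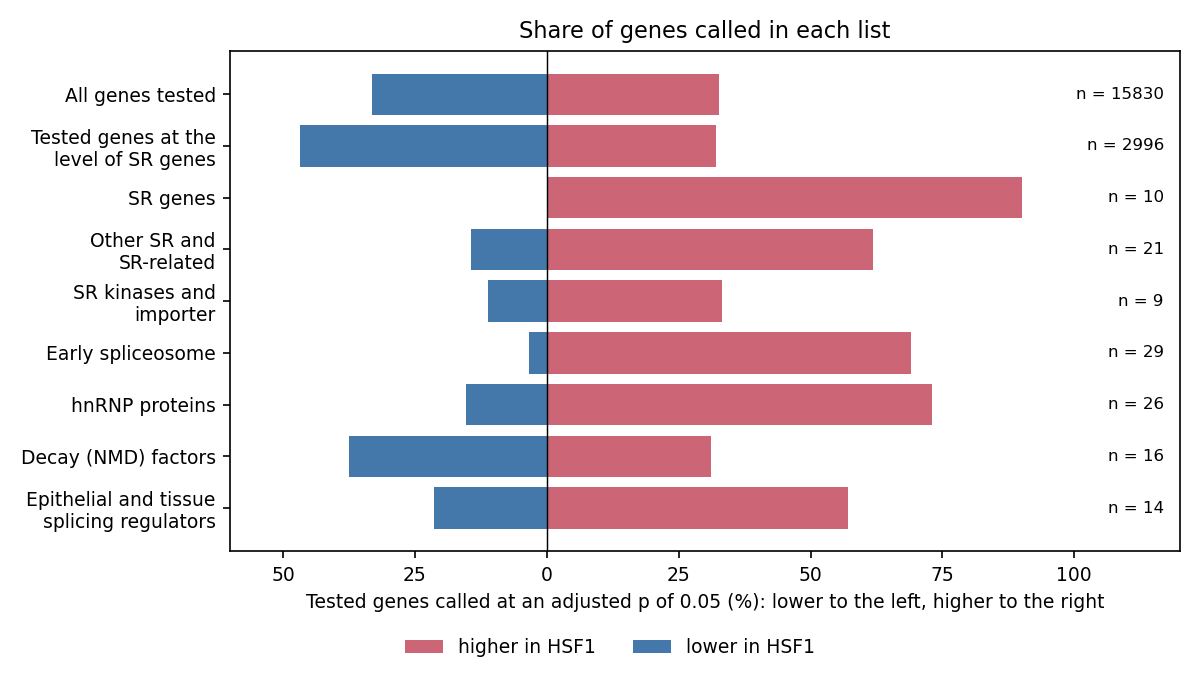
Percent of tested genes called higher (red, to the right) or lower (blue, to the left) in HSF1-pLVX libraries, for all 15830 tested genes, for the 2996 at the level of SR genes, and for each list with its number tested. The SR genes reach 90% higher and 0% lower, against 32.7 and 33.2% of all tested genes.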

How the data were processed

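RNA-seq of 2 WT and 2 HSF1-overexpressing MCF10A libraries was analysed from the deposited tables, with groups and replicate numbers from the labels. The authors aligned reads to hg38 with HISAT2 2.0.5, processed them with SAMtools 1.13 and counted them with featureCounts 1.6.5, and the deposited raw counts per gene were used here. Their second table holds log2-like values that the authors normalized with DESeq2 1.32.0, and it served as an alternative only. Of 63856 genes, 57392 were named through GENCODE release 44.

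The test was that of edgeR 4.0.16 under R 4.3.3 (TMM, filterByExpr, quasi-likelihood test, variant as the only term) over 15830 genes. SE is the log2 fold change divided by the square root of F. DESeq2 1.42.0, other normalizations, no filter, the replicate block and each library left out in turn were tried. The script was tested on simulated data in which far fewer genes changed than were called here. That test does not measure the share of false calls in these data. Replicates of a variant differed by more than sampling noise (chi-square per degree of freedom of 4.39 for WT and 5.30 for HSF1-pLVX). All 10 members, HSF1, the other SR, kinase and importer genes, and the 2 largest called rises and falls of at least 5 CPM in other lists were named, except that 1 gene under this rule is not reported here. ESRP1, UPF1, HNRNPL, HNRNPR, U2AF1, MFSD11 and GATC were named after their values were seen or for overlapping a member. The members and lists were chosen with earlier results of these data known. Each library held between 18688109 and 24184285 counts.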

Additional observations from a re-analysis of the deposited data

How the results depend on the processing

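The number of SR genes called higher was 9, and lower 0, under every alternative: DESeq2's size factors, library size only, no filter on low counts, DESeq2's Wald test, the replicate block, each library left out and an adjusted p of 0.01. The replicate numbers were not treated as pairs, since deviations of same-numbered libraries correlated at -0.0147 (all genes tested) and at -0.114 (9672 genes of more than 8 CPM). With the replicate block the numbers were 9 and 0, and with the crossed pairing 9 and 0. The prior degrees of freedom of edgeR set how far each gene's spread is drawn toward a common trend, and were 11.9 in the main fit. They were infinite with the replicate block, without the filter and without WT replicate 1 or 2, and 361 with the crossed pairing. In these fits a gene's own spread counted for little, so they are not independent support for the calls. Over all tested genes 5138 were higher with the replicate block against 5175 without it. Over the alternatives that keep all libraries, the largest adjusted p of the 9 genes was the 0.00244 of SRSF10, and with a library left out the largest was 0.0382 in edgeR. HSF1 kept a log2 fold change between 2.31 and 2.41. A group left with 1 library was assumed to vary like the other group. The summed SR level stayed between 1.37-fold and 1.48-fold higher.

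Among all tested genes 33.2% were lower and 32.7% higher. Of the 115 tested genes in the other splicing lists, 18 were lower. With each library left out this number lay between 5 and 16, the 5 without HSF1-pLVX replicate 2, where edgeR's prior degrees of freedom fell from 11.9 to 3.02. The number higher, 68, lay between 51 and 69 over all alternatives. Values near 0 changed sign without being called. SRSF9 had 0.030 and BCLAF1 0.010 when scaled by library size alone. SRPK2 had -0.0074 with DESeq2's size factors, -0.00019 without the filter and -0.0065 in DESeq2. With a library left out, SRSF9 lay between -0.051 and 0.0092, TRA2A between -0.0046 and 0.38, BCLAF1 between -0.15 and 0.047, SRPK2 between -0.073 and 0.091, and SRPK3 between -0.53 and 0.32. The authors' normalized values gave differences of 0.40 to 0.69 for the 9 SR genes and -0.059 for SRSF9.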
